A study of Mus musculus with 12 samples.

Results

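Necroptosis and the extrinsic arm of apoptosis are represented here by 9 genes, Zbp1, Ripk1, Ripk3, Mlkl, Casp8, Fadd, Tradd, Xaf1 and Xiap, which were taken by gene symbol from the 55487 gene models of the expression table. All 9 were found once each and all 9 passed the filter on low values, a mean of at least 10 normalized counts, in every comparison. The macrophages were bone marrow-derived macrophages (BMDMs) of C57BL/6 mice aged 8 to 12 weeks, grown in medium conditioned by L929 cells, the usual source of macrophage colony-stimulating factor. RasGEF1b-cKO (KO) mice, Rasgef1b-fl/fl;CMVcre, come from floxed mice crossed with mice that carry a Cre transgene driven by the CMV promoter. Heterozygous offspring were intercrossed, which gave a deletion of a pair of Rasgef1b exons in all tissues, germ cells included, rather than in macrophages alone. Wild-type (WT) mice came from the animal facility, and they are not described as littermates. The 4 groups were KO macrophages treated with lipopolysaccharide (LPS, from Escherichia coli O55:B5) at 100 ng/ml for 4 h, WT macrophages treated in the same way, untreated KO macrophages and untreated WT macrophages, with 3 libraries described as biological replicates in each group and 12 libraries in all. The comparisons asked how these genes responded to LPS in each genotype, and whether their levels or their response differed between KO and WT macrophages.

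ZBP1, RIPK1 and RIPK3 share a short interaction motif, the RHIM, through which they assemble. RIPK3 that has been activated in this way phosphorylates MLKL, and MLKL then opens the plasma membrane, which is the lytic death called necroptosis. TNF receptors recruit TRADD, RIPK1 and FADD. FADD brings in caspase-8, which either starts apoptosis or, together with the protein encoded by Cflar, cuts the RIP kinases and holds necroptosis back. XIAP inhibits caspases and is a ubiquitin ligase, and XAF1 is known as an interferon-inducible antagonist of XIAP. In macrophages, Toll-like receptors that signal through TRIF, among them the LPS receptor TLR4, can engage the same kinases.

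In short, LPS went with increases in Zbp1, Xaf1, Mlkl, Casp8 and Xiap mRNA in both genotypes, from 50.4-fold for Zbp1 to 2.18-fold for Xiap in KO macrophages. The Xiap call was lost in both genotypes under quantile normalization and under scaling to total counts, and the WT Casp8 call under the latter. Fadd mRNA was lower in both genotypes but called in WT macrophages only, and some settings removed that call. Ripk1 was 1.61-fold higher in KO and 1.72-fold higher in WT macrophages. That difference was lost in KO macrophages under quantile normalization and in both genotypes under scaling to total counts. Ripk3 and Tradd were within their replicate spread or close to it. Under scaling to total counts Ripk3 and Tradd were lower in both genotypes at an adjusted p under 0.05, short of a fold of 2. Under another one, upper quartile scaling, Ripk3 was higher at that adjusted p, again short of a fold of 2. None of the 9 genes was called different between KO and WT macrophages, treated or not.

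RefSeq promoter windows of GRCm38.p6, which run from 250 bases before to 50 bases after a start site and thus have 300 bases each, were given for 7 of the 9 genes in 10 windows. Zbp1 and Tradd had no entry. Each window was searched on both strands for GAAA and GAAA with 2 bases between them (like an interferon-stimulated response element), TTCNNNGAA (like a gamma-activated site) and GGGA and CC with 4 bases between them (like an NF-kB site), which 3.44%, 8.30% and 20.7% of all 32851 windows hold. One more pattern, GAAANGAAA, with 1 base between the repeats, was added after the sequences had been read and is held by 3.17% of the windows. The Xaf1, Casp8 and Mlkl windows, of genes that were called higher after LPS, and the 1 Xiap and the 1 Ripk1 window with matches, are shown 5′ to 3′ with all matches in capitals. Positions count from the start site, its first base being 1 and the base before it -1.
Xaf1, chr11:72301379-72301678, plus strand: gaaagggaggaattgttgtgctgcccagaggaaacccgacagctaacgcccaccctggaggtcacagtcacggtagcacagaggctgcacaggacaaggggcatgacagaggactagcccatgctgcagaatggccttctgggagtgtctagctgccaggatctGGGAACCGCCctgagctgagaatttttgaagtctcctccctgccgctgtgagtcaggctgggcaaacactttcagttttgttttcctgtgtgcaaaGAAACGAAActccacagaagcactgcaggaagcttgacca
Casp8, chr1:58802252-58802551, plus strand: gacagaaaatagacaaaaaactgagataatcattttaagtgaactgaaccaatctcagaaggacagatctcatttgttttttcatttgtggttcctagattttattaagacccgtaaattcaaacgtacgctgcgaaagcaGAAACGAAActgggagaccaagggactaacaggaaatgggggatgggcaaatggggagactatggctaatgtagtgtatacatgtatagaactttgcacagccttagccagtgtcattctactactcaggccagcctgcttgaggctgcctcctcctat
Xiap, chrX:42068148-42068447, plus strand: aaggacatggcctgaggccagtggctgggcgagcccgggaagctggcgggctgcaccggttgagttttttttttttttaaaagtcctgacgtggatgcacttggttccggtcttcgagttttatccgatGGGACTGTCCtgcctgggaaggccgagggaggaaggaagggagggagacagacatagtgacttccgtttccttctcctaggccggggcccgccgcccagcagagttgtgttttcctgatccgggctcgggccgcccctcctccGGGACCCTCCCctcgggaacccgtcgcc
Ripk1, chr13:34002624-34002923, plus strand: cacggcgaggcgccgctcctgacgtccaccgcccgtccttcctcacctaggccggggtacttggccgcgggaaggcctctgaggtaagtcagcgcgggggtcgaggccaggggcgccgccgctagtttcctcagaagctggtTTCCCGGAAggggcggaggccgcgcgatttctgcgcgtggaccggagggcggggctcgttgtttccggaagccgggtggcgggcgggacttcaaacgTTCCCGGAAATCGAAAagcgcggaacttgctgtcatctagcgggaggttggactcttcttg
Mlkl, chr8:111338156-111338455, minus strand: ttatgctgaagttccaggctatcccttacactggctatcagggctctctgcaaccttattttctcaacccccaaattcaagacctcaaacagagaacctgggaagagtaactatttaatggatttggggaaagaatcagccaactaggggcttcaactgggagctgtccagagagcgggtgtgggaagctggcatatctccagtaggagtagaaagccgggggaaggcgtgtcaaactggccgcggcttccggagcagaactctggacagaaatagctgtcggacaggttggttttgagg

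The Xaf1 and Casp8 windows share the run AGAAACGAAACT of 12 bases, at positions 10 to 21 in Xaf1 and at -110 to -99 in Casp8, and 6 of the 32851 windows (0.0183%) hold it. It is the longest run common to these windows, the only pair compared in this way, and it contains the pattern added after reading. The 6 windows include both, so that the share describes a picked run and is no test of it. Xaf1 also has 1 match to the NF-kB-like pattern at -86 to -77. The Xiap window shown has 3 matches to the NF-kB-like pattern, at -121 to -112, at 23 to 32 and, overlapping the second of these on the other strand, at 24 to 33. In Ripk1, the interferon-type pattern lies across the start site at -5 to 5, and the pattern like a gamma-activated site occurs at -108 to -100 and at -11 to -3, the second overlapping the interferon-type match. The Mlkl window holds none of the 4 patterns, nor do those of Ripk3 and Fadd, the other Ripk1 window and the other Xiap windows. A match describes letters in a window and was not tested as a binding site.

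Over all 12 libraries, 19316691 to 24977356 reads fell in genes, and 1 read was worth 1.21 to 1.41 normalized counts in LPS-treated libraries and 0.66 to 0.855 in untreated libraries. Rasgef1b was lower in KO macrophages, at 3618 to 4192 normalized counts against 11844 to 12554 in WT macrophages after LPS, and at 545 to 695 in KO against 2001 to 2171 in WT macrophages without it. All 8 macrophage markers, such as Adgre1 and Csf1r, were present in every library at 1293 normalized counts or more. Summed NK cell, erythroid, and mast cell and basophil markers reached at most 4.28, 4.09 and 7.92. Summed neutrophil and granulocyte precursor markers were 327 to 894 in LPS-treated KO, 267 to 549 in LPS-treated WT, 209 to 442 in untreated KO and 215 to 463 in untreated WT libraries, mostly S100a8 and S100a9, with Ly6g at 1.71 or less. The T cell list was made up nearly of Cd4 alone, at 83.5 to 99.4 in LPS-treated KO and 151 to 175 in LPS-treated WT and at 106 to 142 in untreated KO and 168 to 245 in untreated WT libraries as the summed level, with the CD3 genes Cd3e, Cd3d and Cd3g at 1.71 or less. Summed B cell markers were 23.1 to 86.1 over all libraries, mostly Cd79b. Summed stromal markers were 60.1 to 108 in LPS-treated KO and 35.2 to 83.5 in LPS-treated WT, against 20.5 to 36.7 in untreated KO and 11.9 to 29.1 in untreated WT libraries. Summed dendritic cell markers were 85.7 to 131 in LPS-treated KO, 57.7 to 101 in LPS-treated WT, 12.0 to 25.4 in untreated KO and 9.69 to 19.1 in untreated WT libraries, and the part of these cell types in the results was not tested. Replicate 2 of the untreated KO macrophages stood apart in 1 gene model, ENSMUSG00000106106, whose share was 5.06% of all reads there and between 0.0398% and 0.0874% elsewhere. The same library had reads in the most gene models, 22246, against 18693 to 21254 in the others. The paper lists its lowest share of uniquely mapped reads for an untreated KO library, without giving its replicate number. Xist, the X-inactivation RNA of female cells, stood at 15146 to 18652 normalized counts in both libraries numbered 1 of WT and both numbered 2 of KO macrophages, and at 28.7 or less in the other 8, where the Y-linked Ddx3y was expressed. In bulk RNA, fewer cells of a type and less RNA per cell cannot be told apart.

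**Figure D1:**
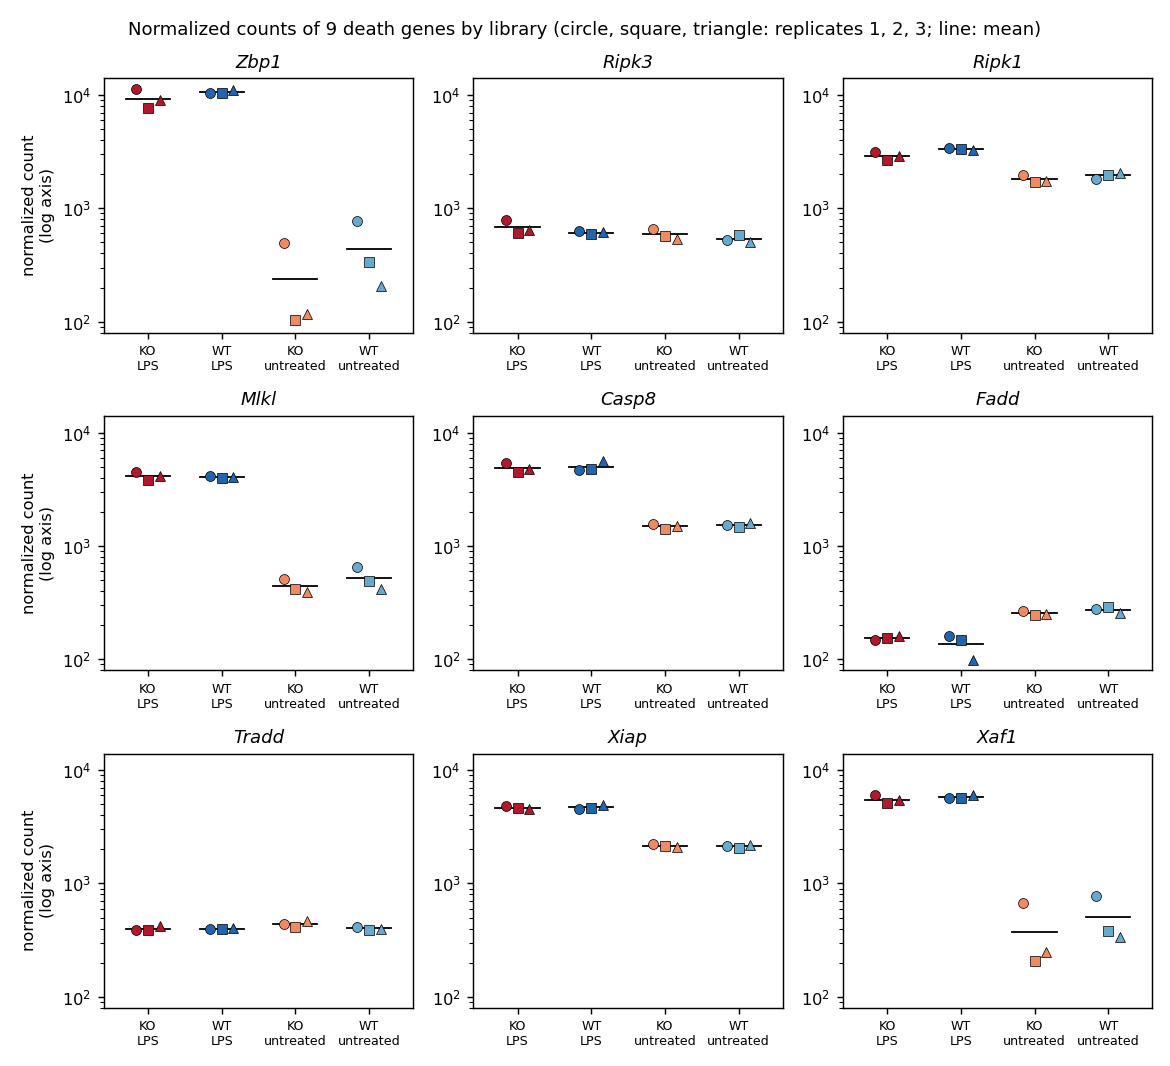
Normalized counts (log axis) of the 9 genes in each of the 12 libraries, with KO and WT macrophages treated with LPS on the left and untreated ones on the right of each panel; symbols mark replicates 1, 2 and 3 and the line is the group mean. Zbp1, Xaf1 and Mlkl separate most between treated and untreated libraries, and in untreated libraries the circle of replicate 1 lies above the other two for these 3 genes in both genotypes.

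Zbp1, on chromosome 2 (173206612 to 173218923, GRCm38), encodes a sensor of Z-form nucleic acids that can hand its signal to RIPK3. It was counted at 11206, 7649 and 9042 normalized counts in the LPS-treated KO libraries, against 496, 103 and 117 in the untreated KO libraries. In WT macrophages the counts were 10399, 10364 and 11116 with LPS, against 776, 339 and 206 without. The treated and untreated libraries were far apart in both genotypes, while the untreated libraries also differed widely among themselves, 4.83-fold between the highest and the lowest in KO and 3.76-fold in WT macrophages. The log2 fold change for LPS was 5.65 (SE 0.52, limma with Benjamini-Hochberg adjusted p = 1.31e-05) in KO and 4.81 (SE 0.38, adjusted p = 2.48e-06) in WT macrophages. Leaving out replicate 1 of the untreated KO macrophages gave 6.38, a change of more than 1.5 times in the fold.

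Neither of the 2 RIP kinase genes was called for LPS. Ripk1, on chromosome 13 (34002363 to 34037147), was counted at 3152, 2670 and 2910 in LPS-treated KO against 1968, 1696 and 1746 in untreated KO libraries. In WT libraries it was at 3381, 3369 and 3283 with LPS and at 1827, 1955 and 2070 without. Neither genotype showed an overlap between treated and untreated libraries, and the rise, 1.61-fold in KO and 1.72-fold in WT macrophages, passed the adjusted p (7.96e-05 in KO, 1.88e-06 in WT) but stayed under the fold of 2 that a call needs. It depended on the scaling, since the log2 fold change was 0.11 in KO (adjusted p = 0.214) and 0.16 in WT macrophages (adjusted p = 0.0482) under quantile normalization, and 0.00 in KO (adjusted p = 0.969) and 0.05 in WT (adjusted p = 0.44) under scaling to total counts. Exons of Gm17084, a pseudogene, and Serpinb6a overlap 9.01% of the Ripk1 exons, and how reads there were assigned was not tested. Ripk3, on chromosome 14 (55784995 to 55788865), the kinase that activates MLKL, stood at 793, 604 and 638 in LPS-treated KO and at 661, 572 and 541 in untreated KO libraries. In WT libraries Ripk3 was at 631, 590 and 613 with LPS and at 529, 584 and 503 without. Its libraries overlapped between treated and untreated KO macrophages and did not overlap in WT macrophages. The log2 fold change of 0.19 in both (SE 0.12, limma adjusted p = 0.172 in KO, SE 0.08, adjusted p = 0.0539 in WT) did not pass the unpaired test. Its direction depended on the scaling. Under upper quartile scaling Ripk3 passed the adjusted p as higher (0.38 in KO, adjusted p = 0.0161, and 0.36 in WT, adjusted p = 0.00198). Under scaling to total counts it passed as lower (-0.49 in KO, adjusted p = 0.00309, and -0.54 in WT, adjusted p = 0.000116). A block on the replicate number takes same-numbered libraries as pairs. With it, the Ripk3 value of 0.19 passed the limma adjusted p in KO (SE 0.07, adjusted p = 0.0333) and not in WT macrophages (SE 0.08, adjusted p = 0.0566), well under a fold of 2 in both. Within replicate numbers the treated library was the higher one in 6 of 6 pairs, 1.20, 1.06 and 1.18 times in KO and 1.19, 1.01 and 1.22 times in WT macrophages.

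Mlkl, the pseudokinase that carries out necroptosis, rose strongly in both genotypes. The gene, on chromosome 8 (111311797 to 111338177), was counted at 4454, 3789 and 4143 in LPS-treated KO against 514, 418 and 392 in untreated KO libraries. In WT libraries it was counted at 4108, 3987 and 4087 with LPS against 651, 492 and 417 without. Every treated library was thus above every untreated one, 9.38-fold on average in KO (95% confidence interval 7.92 to 11.1, adjusted p = 2.85e-08) and 7.93-fold in WT macrophages (6.42 to 9.80, adjusted p = 5.49e-08). Within the RIPK3 and MLKL pair, only the mRNA of MLKL was called for LPS. Whether the 2 genes differed in response was not tested.

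Casp8, on chromosome 1 (58795374 to 58847503), the initiator caspase that also restrains necroptosis, was at 5402, 4484 and 4776 in LPS-treated KO against 1575, 1421 and 1510 in untreated KO libraries. In WT libraries Casp8 was at 4673, 4742 and 5573 with LPS against 1519, 1465 and 1576 without. The groups did not overlap and the fold was close in the 2 genotypes, 3.24 in KO (95% confidence interval 2.86 to 3.68, adjusted p = 2.05e-07) and 3.28 in WT (2.92 to 3.68, adjusted p = 4.23e-08). Under scaling to total counts the WT value, 0.99 on the log2 scale, fell just short of a call. The adaptor genes beside it did not follow. Fadd, on chromosome 7 (144577318 to 144582463), which links death receptors to caspase-8, was lower after LPS, at 149, 153 and 161 in treated KO against 264, 245 and 251 in untreated KO libraries. In WT libraries it was at 160, 149 and 98.8 with LPS against 275, 287 and 255 without. No treated library reached an untreated one, and replicate 3 of the LPS-treated WT macrophages was the lowest of all. The log2 fold change of Fadd was -0.71 (SE 0.09, adjusted p = 0.000146) in KO, short of the fold of 2, and -1.03 (SE 0.17, adjusted p = 0.000512) in WT macrophages, where it was called. The WT call was lost without that replicate 3 (-0.81), without replicate 2 of the untreated WT macrophages (-0.99) and under 3 other settings. The difference between the genotypes in the Fadd response was 0.31 with a 95% confidence interval of -0.14 to 0.76 (interaction adjusted p = 0.999). An antisense gene, Faddos, overlaps 6.12% of the Fadd exons, and the strand of the reads is not given in the sources used here.

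Tradd, on chromosome 8 (105258286 to 105264609), the adaptor of TNF receptor 1, was level in the normalized counts as deposited. It was at 387, 386 and 425 in LPS-treated KO against 443, 416 and 470 in untreated KO libraries, and at 395, 400 and 402 in LPS-treated WT against 411, 391 and 400 in untreated WT libraries. The libraries overlapped in both genotypes, and the log2 fold changes of -0.15 in KO (95% confidence interval -0.34 to 0.04, adjusted p = 0.132) and -0.01 in WT macrophages (-0.17 to 0.15, adjusted p = 0.946) did not pass the test, with positive values under upper quartile scaling (0.04 in KO, 0.17 in WT) and in WT also under quantile normalization (0.08). Under scaling to total counts Tradd was lower, at -0.84 in KO (limma adjusted p = 3.5e-05) and -0.73 in WT macrophages (adjusted p = 7.29e-06), short of a call.

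XIAP and its antagonist both rose at the mRNA level. Xiap, on the X chromosome (42059679 to 42109656), was at 4860, 4667 and 4501 in LPS-treated KO against 2217, 2138 and 2089 in untreated KO libraries. In WT libraries Xiap was at 4573, 4623 and 4945 with LPS against 2158, 2073 and 2176 without. The untreated libraries were tight, with a coefficient of variation of 3.00% in KO and 2.57% in WT macrophages. The libraries with high Xist (numbered 2 in KO, 1 in WT) lay between the other two of their group in 3 groups and just below them in LPS-treated WT macrophages. The fold for LPS was 2.18 in KO (95% confidence interval 1.99 to 2.38, adjusted p = 3.55e-07) and 2.21 in WT macrophages (2.03 to 2.40, adjusted p = 6.85e-08). That is just past the threshold of 2, and the call was lost under quantile normalization (log2 fold change 0.43 in KO, 0.46 in WT) and under scaling to total counts (0.44 in KO, 0.42 in WT), where the median of all genes itself moved by -0.68 in KO and -0.72 in WT macrophages. Xaf1, on chromosome 11 (72301629 to 72313733), was at 6020, 5086 and 5406 in LPS-treated KO against 668, 208 and 249 in untreated KO libraries. In WT libraries Xaf1 was at 5700, 5680 and 6009 with LPS against 780, 384 and 339 without. As for Zbp1, the groups were far apart and the untreated libraries numbered 1 were the highest, so that the fold was large but less exact, 16.8 in KO (95% confidence interval 9.38 to 30.1, adjusted p = 1.24e-05) and 12.4 in WT macrophages (8.31 to 18.5, adjusted p = 1.18e-06).

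Counted together, 5 of the 9 genes (Zbp1, Xaf1, Mlkl, Casp8 and Xiap) were called higher after LPS in KO macrophages and 0 were called lower, where 17.3% of the 12732 genes tested were called higher and 16.6% lower. In WT macrophages the same 5 genes were called higher and Fadd was called lower, against 17.1% higher and 16.9% lower among 12656 genes. At the adjusted p alone 6 genes were higher and 1 was lower in each genotype, and by this measure 36.3% of all genes were higher and 35.7% lower in KO, and 36.7% higher and 36.6% lower in WT macrophages. The median log2 fold change of the 9 genes was 1.12 in KO and 1.14 in WT macrophages, and that of all genes was -0.01 in KO and -0.02 in WT macrophages. Without overlap between treated and untreated libraries, 6 genes were higher and 1 lower in KO macrophages, where 38.4% of all genes were higher and 38.1% lower in this sense, and 7 genes were higher and 1 lower in WT macrophages, where 38.3% of all genes were higher and 38.6% lower. Upper quartile scaling, another way of setting the libraries level, moved the median of all genes by 0.19 in KO and 0.18 in WT macrophages. It left 5 genes higher and 0 lower in both. Under quantile normalization 4 genes were higher and 0 lower in both, and under scaling to total counts 4 were higher and 1 lower in KO and 3 higher and 1 lower in WT macrophages. Scaling to total counts moved the median of all genes by -0.68 in KO and -0.72 in WT macrophages. The shares of all genes above belong to the normalized counts as deposited. They were not taken under these scalings, so the counts there have no share beside them.

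**Figure D2:**
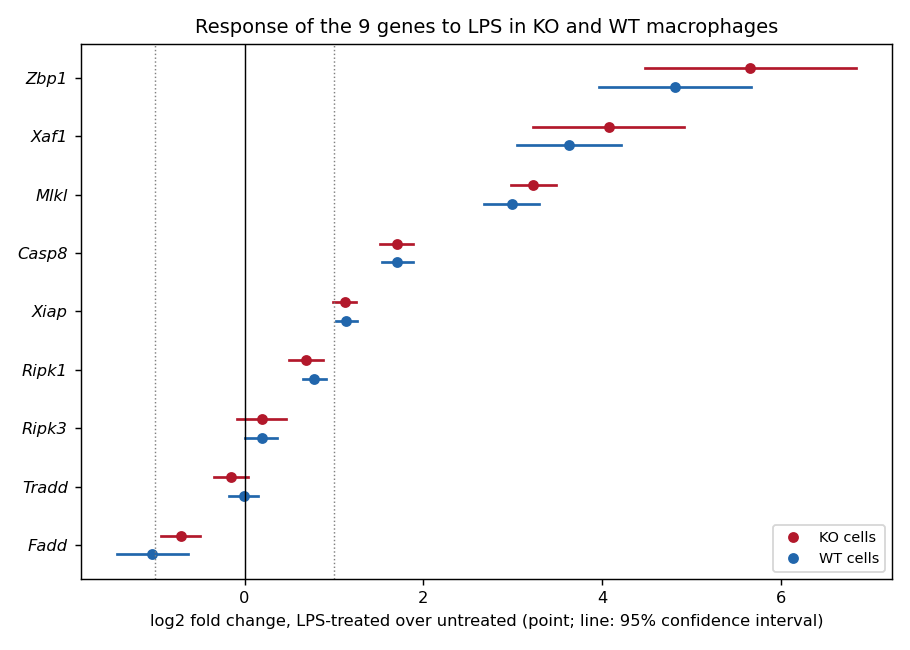
Log2 fold change of each of the 9 genes, LPS-treated over untreated, in KO macrophages (upper, red) and WT macrophages (lower, blue); lines are 95% confidence intervals and dotted lines mark the fold of 2 in either direction. The genes keep one order in both genotypes, from Zbp1 (5.65 in KO, 4.81 in WT) to Fadd (-0.71 in KO, -1.03 in WT), and the intervals are widest for Zbp1 and Xaf1.

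Per kilobase of annotated exon, which allows levels of different genes to be set side by side, Zbp1 was at 2635 ± 508 in KO and 3011 ± 120 normalized counts per kb in WT macrophages after LPS (SD, n = 3 each), the highest of the 9. Mlkl (1793 ± 144 in KO, 1763 ± 28 in WT) and Casp8 (1689 ± 162 in KO, 1727 ± 173 in WT) came next and overlapped each other within their SDs. Xaf1 followed at 1174 ± 101 in KO and 1236 ± 39.4 in WT macrophages. Xiap, Ripk1, Ripk3 and Tradd lay between 494 and 214 in KO and between 498 and 214 in WT macrophages. Fadd was the lowest, at 39.5 ± 1.54 in KO and 34.8 ± 8.39 in WT. Without LPS the order was another one. Casp8 then stood first, at 519 ± 26.7 in KO and 525 ± 19.2 per kb in WT macrophages, Ripk3, Tradd, Xiap, Ripk1 and Mlkl crowded between 192 and 258 in KO and between 215 and 235 in WT, and Zbp1 (67.6 ± 63.2 in KO, 125 ± 84.4 in WT) was among the lowest with Xaf1 and Fadd. Zbp1 thus went with the low genes of untreated macrophages and led the list in treated ones. These lengths are the union of all annotated exons of a gene, and the isoforms in use were not measured.

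For each gene the 4 group means could be put in order, and most neighbours in that order were not separable. In Zbp1, Xaf1, Mlkl, Casp8 and Xiap both LPS groups lay above both untreated groups without overlap, and within each pair KO and WT libraries overlapped. Ripk1 had the same order, with LPS-treated KO libraries also below LPS-treated WT libraries without overlap. Fadd had the 2 untreated groups on top. In Ripk3 every pair of neighbours overlapped. In Tradd the untreated KO libraries (416 to 470) lay above the untreated WT libraries (391 to 411), and the other neighbours overlapped.

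The other genes of the pathway, 53 in 5 lists, were examined in the same fits, and 52 were tested. Fasl, the Fas ligand, was below the tested level, with no read in 10 of the 12 libraries and normalized counts of 2.81 and 1.39 in 2 LPS-treated WT libraries. Of the 52, 29 were called higher and 2 lower after LPS in KO macrophages, against 17.3% higher and 16.6% lower among all genes. In WT macrophages 28 were called higher and 2 lower, against 17.1% higher and 16.9% lower among all genes. These shares also stand beside the counts of each list below that come from the normalized counts as deposited. Under the other scalings no share of all genes was taken, so the list counts given there have none beside them. Of 6 tested genes for TNF, death receptors and their ligands, 5 were called higher in each genotype. Under quantile normalization and under scaling to total counts this count was 4 in each genotype. Tnfsf10, which encodes the death ligand TRAIL, had a log2 fold change of 8.48 (SE 0.39, adjusted p = 1.73e-07) in KO and 7.79 (SE 0.24, adjusted p = 4.50e-09) in WT macrophages. Tnf was up by 6.47 (SE 0.07, adjusted p = 1.63e-10) in KO and 6.21 (SE 0.05, adjusted p = 4.59e-12) in WT macrophages.

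Among 21 ubiquitin and kinase checkpoints of RIPK1, 10 were called higher and 1 lower in each genotype. The largest were Tnfaip3, the ubiquitin-editing enzyme A20, at 5.42 in KO and 5.24 in WT macrophages, and Birc3, the ubiquitin ligase cIAP2, at 3.55 in KO and 3.26 in WT macrophages, all on the log2 scale. The gene that was lower, Tab1, an adaptor of the kinase TAK1, was named after its values were seen (log2 fold change -1.13 in KO, -1.24 in WT), and its KO call was lost under upper quartile scaling and quantile normalization (-0.94 in both). Among 10 sensors and adaptors upstream of RIPK3 and ZBP1, 8 were called higher and 0 lower in each genotype, led by the transcription factor gene Irf1 (4.98 in KO, 4.61 in WT) and Tlr3, a receptor of double-stranded RNA that signals through TRIF (4.18 in KO, 3.91 in WT). Under scaling to total counts this list had 5 genes called higher and 1 lower in each genotype, and under quantile normalization 6 higher in KO and 5 in WT macrophages.

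Of 10 caspase-8 partners, caspases and mitochondrial factors, 6 were called higher and 1 lower in KO and 5 higher and 1 lower in WT macrophages. Under scaling to total counts 4 were higher and 1 lower in KO and 3 higher and 2 lower in WT macrophages. Under quantile normalization 4 were higher and 1 lower in each genotype. Cflar, whose product pairs with caspase-8 and restrains it, was higher by 4.07 in KO and 4.12 in WT macrophages on the log2 scale, a larger value than that of Casp8 itself (1.70 in KO, 1.71 in WT), and the difference between the 2 genes was not tested. Casp9, the initiator caspase of the mitochondrial pathway, also named after its values were seen, was lower (-1.42 in KO, -1.40 in WT). None of 5 other genes of inhibitor of apoptosis proteins was called in either genotype, and their medians were 0.35 in KO and 0.26 in WT macrophages. That list leaves out Birc2 and Birc3, also genes of this family, which were counted among the checkpoints. Both were called higher in each genotype, with Birc2, named after its values were seen, at 2.3 in KO and 2.36 in WT macrophages. Under scaling to total counts the median of the checkpoints was -0.04 in KO and -0.03 in WT macrophages, in place of 0.64 in KO and 0.70 in WT, and that of the 5 inhibitors of apoptosis was negative (-0.34 in KO, -0.46 in WT) there and, in WT macrophages, under quantile normalization (-0.06). The medians of the other 3 lists kept their sign under all 3 scalings tried.

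**Figure D3:**
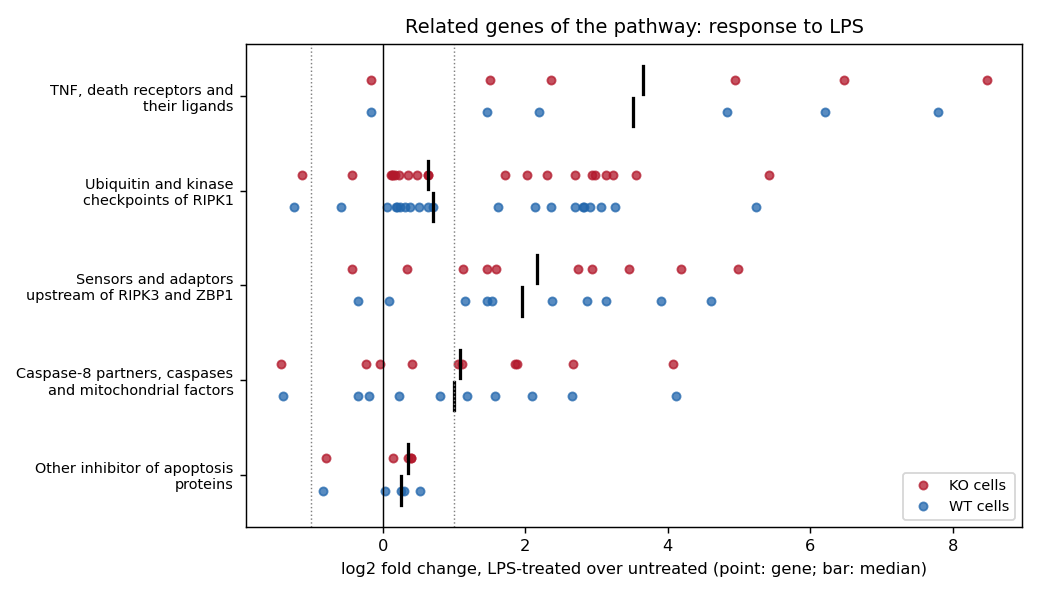
Log2 fold change, LPS-treated over untreated, of the 52 tested genes of 5 related lists in KO macrophages (upper, red) and WT macrophages (lower, blue); each point is a gene, the bar is the median of its list and dotted lines mark the fold of 2. The list of TNF, death receptors and their ligands reaches furthest, with medians of 3.65 in KO and 3.51 in WT macrophages. The list of other inhibitor of apoptosis proteins, which leaves out Birc2 and Birc3, stays inside the dotted lines.

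Deletion of Rasgef1b went with no called difference in any of the 9 genes. After LPS, limma called 0 of the 9 between KO and WT, against 0.232% of the 12504 genes tested. On recovered reads, edgeR called 0 of the 9, against 33 of 12504 genes, and DESeq2 called 0 of the 9, against 43 of 11533. At an unadjusted p under 0.05 in limma, 1 of the 9 passed, as did 10.6% of all genes. That gene was Ripk1, lower in all 3 KO libraries (3152, 2670 and 2910) than in all 3 WT libraries (3381, 3369 and 3283). Such a gap, with groups that do not overlap and KO lower, was seen in 7.73% of all genes. The Ripk1 log2 fold change was -0.20 (95% confidence interval -0.36 to -0.04, limma adjusted p = 0.327). For Mlkl, Casp8, Tradd, Xiap and Xaf1 the intervals of the log2 fold change between KO and WT lay within -0.24 and 0.19 after LPS, or between 0.846 and 1.14 as a fold. The intervals were wider for Zbp1 (-0.47 to 0.05), Ripk3 (-0.09 to 0.37) and Fadd (-0.19 to 0.61).

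Without LPS, limma called 0 of the 9 between KO and WT, against 0.193% of the 12461 genes tested, and 0 of the 9 passed an unadjusted p under 0.05, against 10.8% of all genes. By edgeR and DESeq2 the count was also 0, where edgeR called 18 of 12461 genes and DESeq2 50 of 12439. The largest difference was that of Zbp1, at 496, 103 and 117 in KO against 776, 339 and 206 in WT macrophages. The groups overlapped through the KO library numbered 1, and the log2 fold change was -1.06 with a 95% confidence interval of -2.50 to 0.39 (adjusted p = 0.616). Without both untreated libraries numbered 1, a setting chosen after the data had been seen, the Zbp1 difference was -1.27 (SE 0.22, adjusted p = 0.0603) and that of Xaf1 -0.66 (SE 0.13, adjusted p = 0.0854), and neither was called. With all libraries, Xaf1 differed by -0.51 (95% confidence interval -1.53 to 0.50, adjusted p = 0.753). Leaving out 1 library at a time moved the Zbp1 value between -1.78, without KO replicate 1 and more than 1.5 times away as a fold, and -0.54, without WT replicate 1. Tradd was higher in all 3 untreated KO libraries than in any untreated WT library, a pattern seen in 8.41% of all genes. Its log2 fold change was 0.14 (95% confidence interval -0.02 to 0.30, adjusted p = 0.517).

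**Figure D4:**
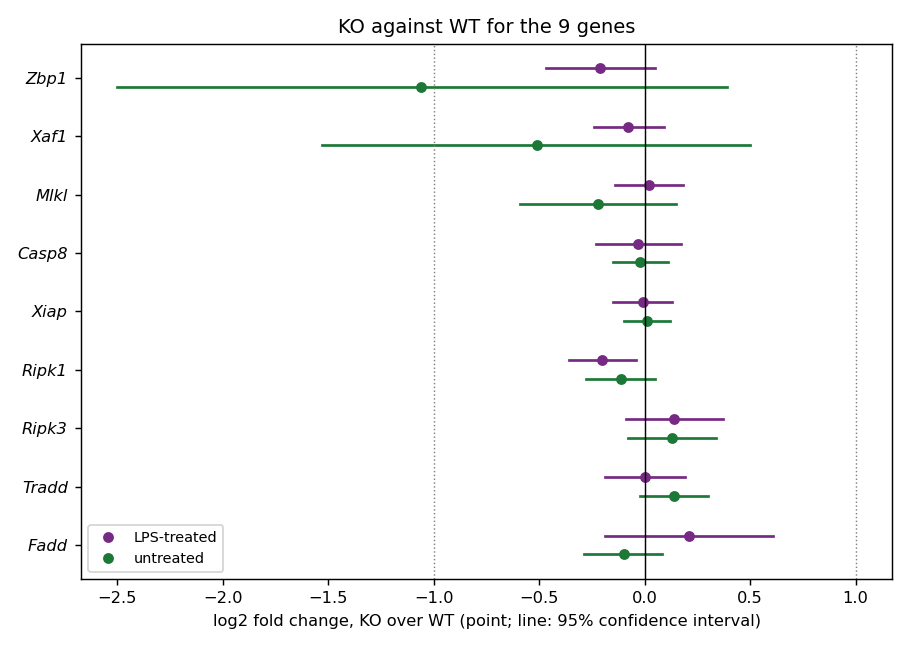
Log2 fold change of the 9 genes, KO over WT, in LPS-treated (upper, purple) and untreated (lower, green) macrophages; lines are 95% confidence intervals and dotted lines mark the fold of 2. Most intervals are narrow and cross 0, Ripk1 after LPS lies below it (-0.36 to -0.04), and the untreated Zbp1 (-2.50 to 0.39) and Xaf1 (-1.53 to 0.50) are the least exact.

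The related genes gave 0 calls between the genotypes in LPS-treated or untreated macrophages, out of 52 tested. Without LPS, 10 of the 52 were lower in all KO libraries than in all WT libraries and 1 was higher in all, where 7.98% of all genes were lower and 8.41% higher in this sense. After LPS these counts were 2 lower and 3 higher, where 7.73% of all genes were lower and 8.35% higher. None of these reached the adjusted p in limma.

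The response to LPS was not shown to differ between KO and WT macrophages for any of the 9 genes. The interaction of genotype and LPS gave 0 calls among the 9 (adjusted p between 0.999 and 1) by limma over all 12 libraries, where 0.00787% of 12711 genes were called, and 0 at an unadjusted p under 0.05, which 4.22% of all genes passed. By edgeR and DESeq2 it was again 0, where edgeR called 1 of 12711 genes and DESeq2 24 of 11464. The largest estimates were those of Zbp1, 0.85 (SE 0.73, 95% confidence interval -0.74 to 2.44), and Xaf1, 0.44 (SE 0.51, -0.67 to 1.55), a larger response in KO macrophages in both. With 1 library left out the Zbp1 estimate lay between 0.33, without replicate 1 of the untreated WT macrophages, and 1.57, without replicate 1 of the untreated KO macrophages, the second more than 1.5 times away as a fold. The interval of Casp8 ran from -0.26 to 0.23 and that of Xiap from -0.18 to 0.14. Since KO and WT comparisons use the same libraries as the LPS comparisons, the values are given side by side and none counts as support for another.

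The spread among untreated macrophages was itself uneven across the 9 genes. In replicate 1, the Zbp1 level was 4.52 times the mean of replicates 2 and 3 in untreated KO and 2.84 times in untreated WT macrophages. For Xaf1 this ratio was 2.92 in KO and 2.16 in WT, and for Mlkl 1.27 in KO and 1.43 in WT macrophages. The other 6 genes were at 0.999 to 1.19 in KO and 0.908 to 1.04 in WT macrophages. Among the sensors and adaptors listed above, some of the higher ratios were those of the transcription factor genes Stat2, at 2.37 in KO and 2.11 in WT, and Irf9, at 1.72 in KO and 1.40 in WT, and of Adar, whose product edits double-stranded RNA (1.61 in KO, 1.48 in WT). Others of that list were lower, with Irf1, Ticam1, Ifnar1 and Ifnar2 between 0.974 and 1.12, Tlr3 at 1.28 in KO and 1.30 in WT, and Tlr4 at 1.22 in KO and 0.996 in WT macrophages. After LPS the same ratio was 0.887 to 1.34 for the 9 genes and Stat2, Irf9 and Adar. Stat2, Irf9 and Adar were picked out after their values had been seen. The libraries with high Xist are numbered 1 in WT and 2 in KO macrophages, and their part in this pattern was not tested. The ratio of LPS-treated to untreated level within a replicate number followed from it, and for Zbp1 was 22.6, 74.5 and 77.5 in KO against 13.4, 30.5 and 53.9 in WT macrophages for replicates 1, 2 and 3. The source of the spread was not tested.

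**Figure D5:**
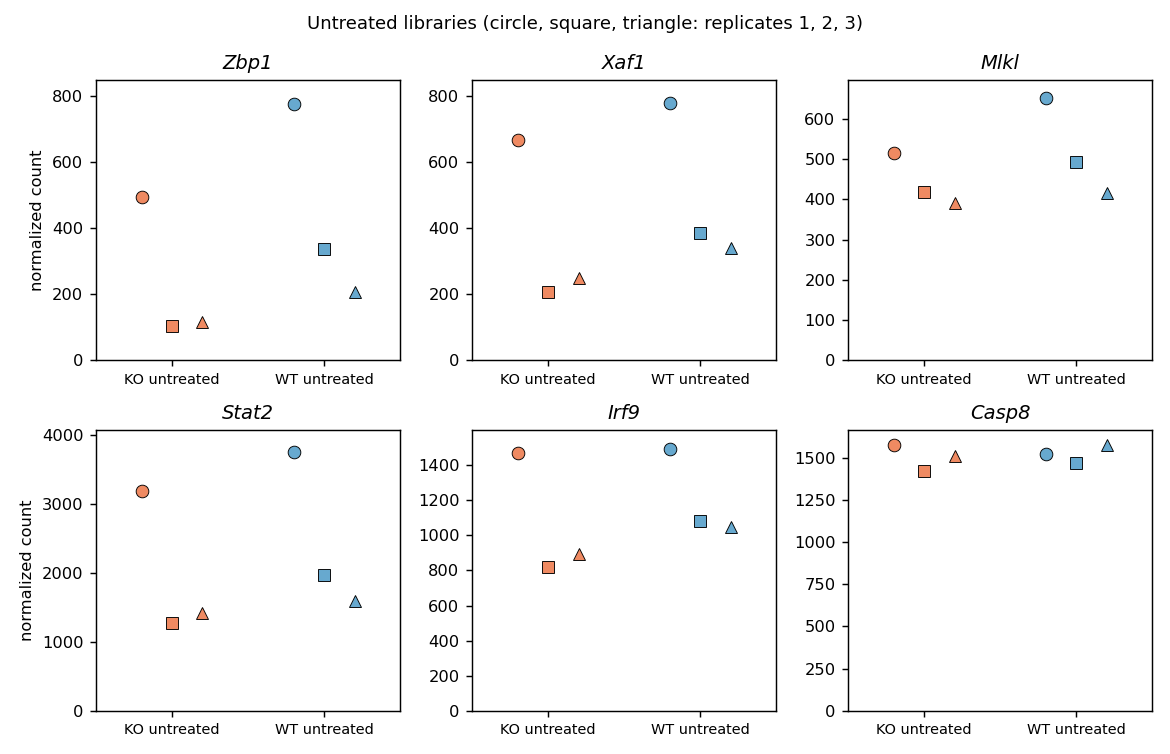
Normalized counts (linear axes from 0) in the 3 untreated KO libraries (left) and the 3 untreated WT libraries (right) for Zbp1, Xaf1, Mlkl, Stat2, Irf9 and Casp8; circle, square and triangle mark replicates 1, 2 and 3. Replicate 1 is the highest in both genotypes for the first 5 genes, as for Zbp1 with 496 in KO and 776 in WT, and Casp8 is level, at 1421 to 1575 in KO and 1465 to 1576 in WT.

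Over the 12 libraries, the genes whose pattern was most like that of Zbp1, by Pearson's r of log2 values among 12710 genes, were Ifit3 (0.999), Ifi206 (0.999) and Ifit3b (0.998), of which Ifit3 and Ifit3b are near-identical copies. For Xaf1 they were Oas2, Stat2 and Rnf213, and for Mlkl Cmpk2, Tapbp and Rsad2, all at 0.999. Casp8 was closest to Tox4, Stat3 and Nsd3 and Xiap to Rnf139, Tmod3 and Arel1, again at 0.999. Ripk1 had AB124611 (0.991), Stom and Fbxl5 (both 0.989). Fadd was nearest to Kif18a (0.985), Cdc6 and Palb2 (both 0.981), genes known from mitosis, DNA replication and DNA repair. Ripk3 and Tradd had no gene above 0.95, and the nearest were Rpl3 (0.946), Rps2 and Rpsa, all of the ribosome, for Ripk3 and Khk (0.890) for Tradd. The points share the LPS treatment and fall in 2 clusters by it, so that 1467 to 2754 genes exceeded 0.95 for each of the 6 genes that rose and 198 for Fadd. These values describe likeness of pattern only.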

How the data were processed

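RNA was extracted with TRIzol, poly(A) RNA was enriched and libraries were built with the NEBNext Ultra II kit. Per the processing notes, the authors used bcl2fastq (2.17), Trimmomatic (0.39), STAR (2.7.4a) on GRCm38, featureCounts of Subread (2.0.1) and DESeq2 (1.32.0) in R (4.1.2). The deposited values are a signal, namely normalized counts: gene counts that the authors divided by 1 DESeq2 size factor per library, with no log. Of these values 100% were whole multiples of what 1 read is worth in the library (tolerance 1e-06 reads), and the recovered reads were used for depth and for the count tests.

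The 9 genes and all gene lists were chosen with earlier results of these data known. Normalized counts, plus a pseudocount of 1, were put on the log2 scale. For each comparison, limma (3.58.1; R 4.3.3) with a variance trend was run unpaired on its 6 libraries and on genes averaging at least 10, and p-values were adjusted after Benjamini and Hochberg over all of them. Genes were called at an adjusted p under 0.05 together with a fold of 2 in either direction. The interaction used all 12 libraries and no fold threshold. Fold changes are on the log2(value + 1) scale. The fits were tested on simulated data. Of related genes, the 2 called genes of each list with the largest change in WT macrophages were named, with any called between genotypes and any below the tested level, except for a named gene whose values are not reported here.

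Alternatives were edgeR (4.0.16) and DESeq2 (1.42.0) on recovered reads, pseudocounts, filters, scalings, variance models, a replicate block, left-out libraries and, added after the data had been seen, a covariate for high Xist and removal of both untreated libraries numbered 1. For the replicate block, same-numbered LPS-treated and untreated libraries of a genotype were taken as pairs, while the paper describes its comparisons as unpaired. Deviations from group means correlated between same-numbered libraries (r of 0.29, 0.28 and 0.17 in KO, 0.33, 0.19 and 0.24 in WT macrophages). Between unlike numbers within a genotype r lay between -0.24 and 0.011. Between genotypes r was mixed for same-numbered libraries (-0.20, -0.036 and 0.056 after LPS, -0.028, -0.038 and 0.24 without). Libraries with unlike numbers reached 0.27 there (LPS-treated KO replicate 2 with LPS-treated WT replicate 1, both with high Xist). The numbers were therefore not taken as pairs between genotypes, and an r of this size does not by itself show a pair within a genotype. The labels call the replicates biological, and the p-values measure the spread between these libraries. Positions and exon lengths are from GENCODE M21 of GRCm38.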

Additional observations from a re-analysis of the deposited data

How the results depend on the processing

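The number of the 9 genes called for LPS ranged from 4 to 7 over the other settings in KO and in WT macrophages (as reported, 5 in KO and 6 in WT), and from 5 to 5 in KO and from 5 to 6 in WT with 1 library left out. The block on replicate number changed no LPS call, although Ripk3 in KO macrophages then passed the adjusted p alone (0.0333). Between genotypes after LPS, and for the interaction, the number of the 9 genes called was 0 under all settings run. Without LPS it was 1 with a replicate block, namely Zbp1 (-1.06, adjusted p = 0.0319), although the numbers were not taken as pairs between genotypes, and 0 under the others. The log2 fold change of single genes changed sign as follows, and none of these values was called. For LPS, Tradd was at 0.04 in KO and 0.17 in WT under upper quartile scaling and 0.08 in WT under quantile normalization, and Ripk3 at -0.49 in KO and -0.54 in WT under total counts. Between genotypes after LPS, Xiap was at 0.02 under total counts. For the interaction, Ripk3 was at -0.01 under upper quartile scaling and -0.03 under quantile normalization, Casp8 at 0.01 under quantile normalization and 0.03 under total counts, and Xiap at 0.02 under total counts. With both untreated libraries numbered 1 removed, Xiap was at -0.01 between untreated genotypes, and Ripk1 and Casp8 at 0.02 in the interaction. With 1 library left out, Tradd ranged from -0.02 to 0.01 for LPS in WT. Between genotypes after LPS, Casp8 ranged from -0.11 to 0.05, Xiap from -0.04 to 0.02 and Mlkl from -0.04 to 0.08, and without LPS Xiap from -0.01 to 0.03 and Casp8 from -0.05 to 0.02. In the interaction, Ripk3 ranged from -0.11 to 0.09, Casp8 from -0.09 to 0.07 and Xiap from -0.05 to 0.02. Under total counts Casp8 in WT macrophages was at 0.99 and no longer called, and Fadd in KO macrophages was called at -1.40. Fadd in WT macrophages was not called under upper quartile scaling (-0.85), quantile normalization (-0.75) or DESeq2 (-0.99). Ripk1 did not pass the adjusted p for LPS under total counts (0.00 in KO, 0.05 in WT). Ripk3 and Tradd passed it there as lower in both genotypes, and Ripk3 passed it as higher under upper quartile scaling, none with a call. The causes were not tested.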
